A study of Homo sapiens with 4 samples.

Results

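Integrins are the receptors by which cells hold on to the extracellular matrix, and focal adhesions are the protein assemblies that tie integrins to the actin cytoskeleton. The genes described here are 38 of these: 19 integrin subunits and 19 cytoplasmic adhesion proteins, chosen by name from 39306 gene names in the tables and all found there. They were measured by sequencing total RNA, after removal of ribosomal RNA, from MHCC97H, a highly metastatic established cell line of human hepatocellular carcinoma. The 2 control libraries came from cells labelled as wild type for HNRNPM, and the 2 knockdown libraries from cells of the same line carrying a short hairpin RNA against HNRNPM, an RNA-binding protein that regulates splicing. The labels number the libraries as replicates but do not name separate cultures, and p-values thus reflect the spread of these libraries alone, which may be technical. The headers call the control columns NC, without a meaning, and number the hairpin in the knockdown columns, so both knockdown libraries may or may not carry the same hairpin. The labels name no control hairpin, so loss of HNRNPM, hairpin delivery and off-target silencing cannot be told apart.

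Each integrin is a pair of 1 α and 1 β subunit, and the pair sets the ligand: α2β1 and its relatives bind collagens, α3β1 and α6β4 bind laminins of the basement membrane, and α5β1 and the αv pairs bind the Arg-Gly-Asp sequence of fibronectin and vitronectin. Talins and kindlins bind the β tail and switch the receptor on, the complex of ILK, PINCH and parvin proteins joins the tail to actin, and vinculin, α-actinins, filamins and tensins carry the force. FAK (PTK2), paxillin and p130Cas (BCAR1) pass on the signal. Hepatocytes in normal liver contact little basement membrane, and laminin-binding integrins are known to be gained in liver cancer cells.

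Levels are in RPKM (reads per kilobase of exon, relative to all assigned reads), divided by a library scaling factor, so that they can be compared between genes as well as between libraries. Assigned reads ranged from 11498663 to 19659106 per library, with both knockdown libraries below both controls. Log2 values correlated across genes with r = 0.986 between the controls, 0.979 between the knockdown libraries and 0.964 to 0.965 across groups. HNRNPM itself stood at 52.1 and 53.1 RPKM in the controls and at 21.2 and 20.1 RPKM in the knockdown libraries, which is 39.2% of the control level (log2 fold change -1.35 ± 0.07, SE; limma adjusted p = 0.00270). Among hepatocyte markers, KRT8 was at 534 ± 18.3 RPKM in wild-type cells (SD, n = 2) and HNF4A at 6.55 ± 0.0863 RPKM, while ALB was at 5.95 ± 0.726, AFP at 0.374 ± 0.0971 and TTR at 0.356 ± 0.143 RPKM. Secreted transferrin (TF) was at 8.54 ± 1.03 RPKM and SERPINA1 at 4.12 ± 0.588 RPKM. In wild-type cells the hepatocyte markers thus ranged from abundant keratin to APOA1 at 0.303 ± 0.0124 RPKM, from 8 reads in each library. TTR had 10 and 19 reads there.

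The start sites of the adhesion genes give a view of their regulatory sequence. RefSeq lists at least 1 start for 28 of the 38 genes, with 52 starts in all. The 250 bases before each start were searched on both strands for 4 motifs, none of which contains another: the AP-1 site TGANTCA, the TEAD core GGAATG, the GC box GGGCGG and the CArG box bound by SRF. The TEAD core lay in 8 of the 52 windows (15.4%), against 11.9% of 35116 windows of all genes. AP-1 sites lay in 3 of 52 (5.77%, against 6.57%), CArG boxes in 3 of 52 (5.77%, against 1.16%) and GC boxes in 27 of 52 (51.9%, against 42.6%). The CArG boxes were those of ACTN1, FLNA and ITGB6, none of which was called in the comparison described further on. Windows before the genes' starts had a median GC content of 65.6%, against 58.0% for all windows. Shown here are a window of ITGB1 and that of VCL, which fell in knockdown cells and both hold the TEAD core. A window of ITGA6 follows, which fell and holds neither that core, an AP-1 site nor a CArG box. RefSeq lists another start for ITGB1 and for ITGA6, and the windows of those starts hold none of these motifs either. The fourth is a 30-base stretch around the TEAD core before ITGA5, which rose. Coordinates are of GRCh38.p14, sequences run 5′ to 3′ on the gene's strand, and capitals mark GGAATG.
ITGB1 (chr10:32958231-32958480, minus strand): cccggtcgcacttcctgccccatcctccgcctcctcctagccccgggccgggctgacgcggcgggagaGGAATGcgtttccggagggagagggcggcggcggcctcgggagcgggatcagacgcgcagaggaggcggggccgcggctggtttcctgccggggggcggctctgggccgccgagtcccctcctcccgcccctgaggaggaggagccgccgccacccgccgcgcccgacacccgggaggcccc
VCL (chr10:73997866-73998115, plus strand): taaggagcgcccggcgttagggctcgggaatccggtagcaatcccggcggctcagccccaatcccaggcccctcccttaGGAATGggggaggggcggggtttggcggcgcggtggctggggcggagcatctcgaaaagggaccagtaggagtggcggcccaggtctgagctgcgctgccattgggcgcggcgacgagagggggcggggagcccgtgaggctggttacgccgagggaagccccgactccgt
ITGA6 (chr2:172427086-172427335, plus strand): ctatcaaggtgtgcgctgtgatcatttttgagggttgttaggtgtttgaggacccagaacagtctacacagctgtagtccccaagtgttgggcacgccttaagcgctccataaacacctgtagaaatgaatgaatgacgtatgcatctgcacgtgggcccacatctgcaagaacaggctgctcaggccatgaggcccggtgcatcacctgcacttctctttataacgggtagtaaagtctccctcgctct
ITGA5 (chr12:54419331-54419360, minus strand): tccagggacccaGGAATGcccccccgccag
The core starts 182 bases before the ITGB1 start used here, 171 before that of VCL and 82 before that of ITGA5. The stretches shown for these genes lie inside the gene spans given further on. The core also lies before TNS1, which rose, before ITGA10, which fell, and before PXN and ACTN1, which were not called. It thus occurs before genes that fell, genes that rose and genes that were not called. These are matches of letters only, and a window without a match says nothing of whether a factor acts on the gene.

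The levels of the genes spanned more than 3 orders of magnitude in wild-type cells. FLNA, the actin crosslinker filamin A, was the most abundant at 438 ± 0.988 RPKM (SD, n = 2), rank 94 of the 20221 genes tested by mean level over all libraries. ACTN4, an actin-bundling α-actinin, followed at 181 ± 5.67 RPKM, and ITGB1, the β subunit shared by most matrix receptors, at 107 ± 8.01 RPKM. Next came ITGA6, ITGB4, TLN1 and ITGA3 at 55.8 to 63.5 RPKM, then ITGAV and ITGB5 at 42.1 and 42.0 RPKM. At the other end, ITGA9, ITGB6, ITGB8 and TNS4 were at 0.0731 to 0.206 RPKM, from 4 to 76 reads per library. The line thus held transcripts for laminin receptors (ITGA3, ITGA6, ITGB4, ITGB1) and αv receptors (ITGAV, ITGB5), with fibronectin receptor α5 (ITGA5) at 24.7 ± 1.71 RPKM and collagen receptor α2 (ITGA2) at 7.98 ± 0.529 RPKM.

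**Figure D1:**
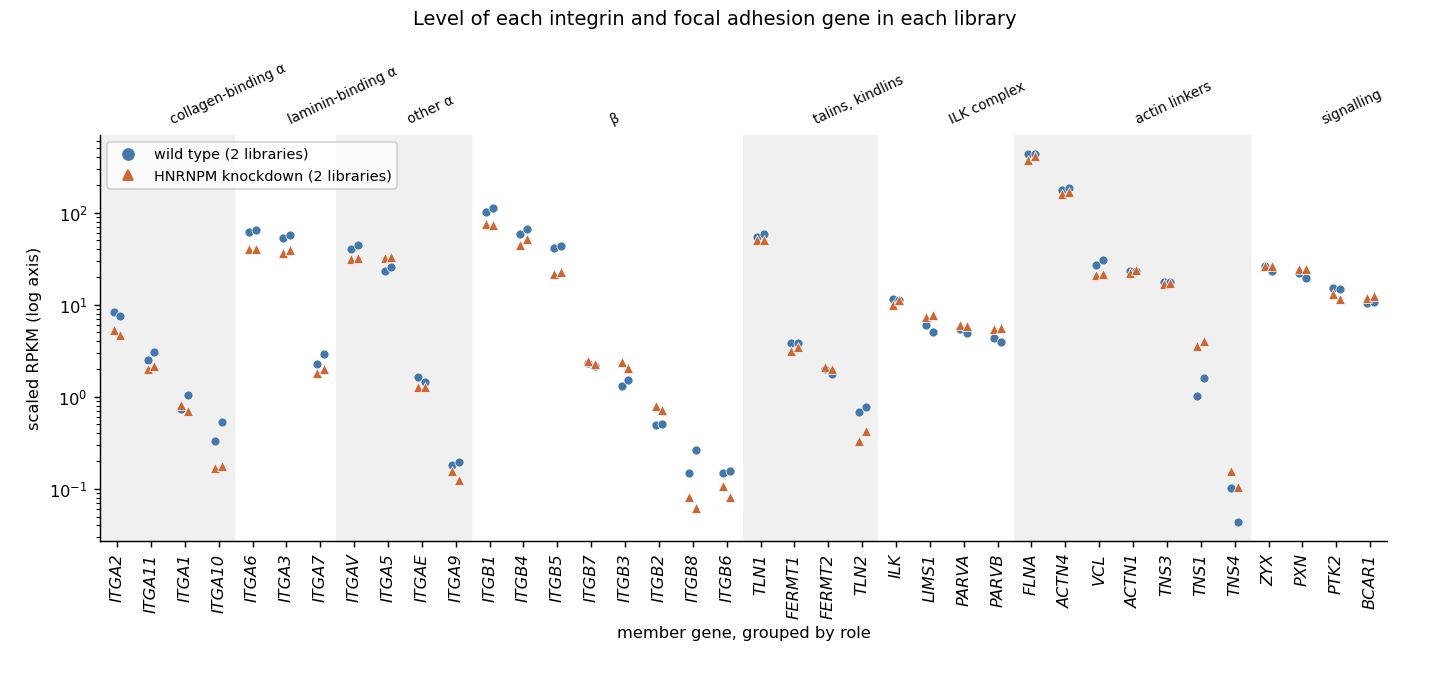
Scaled RPKM of each of the 38 genes (log axis) in the 2 wild-type libraries (circles) and the 2 HNRNPM knockdown libraries (triangles), 1 point per library, grouped by role. ITGB5 drops from 41.0 and 43.0 to 21.7 and 22.7 RPKM, while TNS1 goes from 1.02 and 1.61 to 3.55 and 4.01 RPKM.

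The comparison of knockdown with wild-type cells asks which of these genes differ after HNRNPM knockdown. Several of the most abundant integrin subunits were lower in knockdown cells, among them ITGB1, ITGB5, ITGA3, ITGA6 and ITGAV, and the fibronectin receptor subunit ITGA5 was higher. A gene was called at a Benjamini-Hochberg adjusted p under 0.05 in a limma fit of log2(RPKM + 0.1) over all 20221 genes with enough reads, a group that included 37 of the 38 (TNS4 had too few reads). Of the 37, 5 were called higher (ITGA5, ITGB3, TNS1, LIMS1 and PARVB) and 9 lower (ITGA2, ITGA3, ITGA6, ITGA10, ITGAV, ITGB1, ITGB5, TLN2 and VCL). Of all genes tested, 11.1% were called higher and 13.8% lower, or 24.9% in either direction, against 37.8% of the 37. Of all called genes 44.5% were higher, or 55.5% without the scaling factors, and the 14 adhesion genes were called either way. Among the 19 integrin subunits 2 were higher, 7 lower and 10 not called, with a median log2 fold change of -0.39. Among the 18 cytoplasmic proteins tested 3 were higher, 2 lower and 13 not called, with a median of -0.05, against -0.03 over all genes tested. The groups did not overlap in 34 of the 37 genes (91.9%), against 67.6% of all genes tested. Adhesion genes tested also had longer exons (median 7771 bp against 3572 bp) and higher levels (median 6.58 against 3.53 RPKM) than genes tested as a whole, and with the trend of fold changes along exon length removed, 6 were higher and 8 lower, with PXN added and ITGA10 lost. With 2 libraries a group, no exact permutation test of 1 gene can go below p = 0.333, so every call leans on the spread that limma pools over genes.

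**Figure D2:**
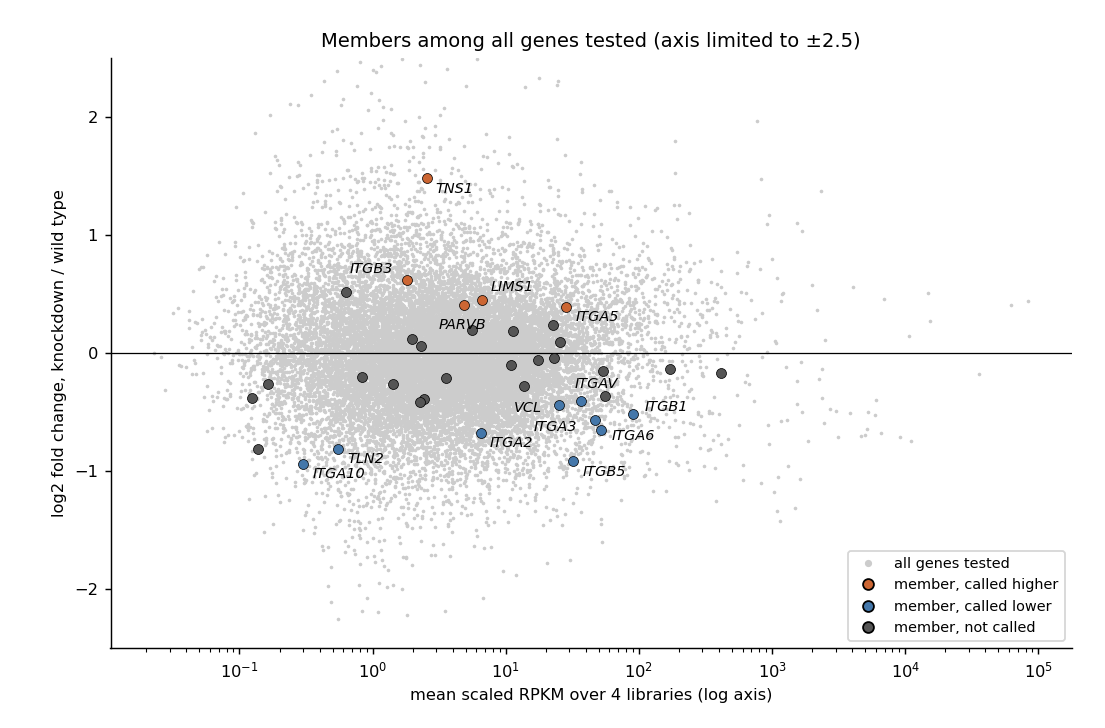
Log2 fold change against mean scaled RPKM (log axis) for all 20221 genes tested (grey) with the 37 adhesion genes on top, coloured by call; genes beyond ±2.5 lie outside the axis. The 9 genes called lower include the abundant ITGB1, ITGA6 and ITGA3, and TNS1 has the highest fold change of the 37.

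Both main laminin-binding α subunits fell. ITGA6 (chromosome 2, positions 172427354 to 172506282, plus strand), which pairs with β1 or β4, stood at 61.8 and 65.2 RPKM in the wild-type libraries and at 40.7 and 40.3 RPKM in the knockdown libraries. Both knockdown values lay well under both controls, with a difference of -0.65 ± 0.07 on the log2 scale (SE; limma adjusted p = 0.00503). ITGA3 (chromosome 17, positions 50055968 to 50090481, plus strand), the α subunit of the laminin-332 receptor α3β1, went from 53.6 and 57.9 RPKM to 36.1 and 38.9 RPKM. Its log2 fold change was -0.57 ± 0.08 (limma adjusted p = 0.00793). ITGB4 (chromosome 17, positions 75721328 to 75757818, plus strand), the hemidesmosome subunit that pairs only with α6, was at 58.1 and 66.3 RPKM in wild-type and at 45.0 and 51.4 RPKM in knockdown cells. These groups did not overlap either, but the difference missed the threshold (log2 fold change -0.37 ± 0.10; limma adjusted p = 0.0506). Its fold lay between 0.651 and 0.924 in the 95% interval. ITGB4 was called under 3 of 14 other ways of processing the data and not under the rest. The 3 were limma with a replicate block (adjusted p = 0.0183), limma with a filter of 50 reads (adjusted p = 0.0218) and limma-voom on recovered reads (adjusted p = 0.00111). ITGA7, known mainly from muscle, was at 2.61 ± 0.449 and 1.92 ± 0.133 RPKM and was not called (limma adjusted p = 0.115).

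ITGB1 (chromosome 10, positions 32900319 to 33005792, minus strand), the common partner of the collagen, laminin and fibronectin receptor α subunits, also fell. Its levels were 101 and 113 RPKM in wild-type and 75.6 and 73.5 RPKM in knockdown libraries. This gave a log2 fold change of -0.52 ± 0.08 (limma adjusted p = 0.0108). Without knockdown replicate 2 it missed the threshold (adjusted p = 0.0567), while ITGA3, ITGA6 and ITGB5 passed whichever library was left out.

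The β partners of αv at vitronectin receptors moved in opposite directions. ITGB5 (chromosome 3, positions 124761948 to 124901418, minus strand), the β subunit of αvβ5, had the smallest adjusted p of all the adhesion genes. It went from 41.0 and 43.0 RPKM to 21.7 and 22.7 RPKM, to 52.9% of the wild-type level (log2 fold change -0.92 ± 0.07; limma adjusted p = 0.00364). Its partner ITGAV (chromosome 2, positions 186590065 to 186680901, plus strand) went from 40.0 and 44.3 RPKM to 31.2 and 32.3 RPKM (log2 fold change -0.40 ± 0.08; limma adjusted p = 0.0195). ITGB3 (chromosome 17, positions 47253846 to 47311816, plus strand), which forms αvβ3 with the same α subunit, rose from 1.30 and 1.51 RPKM to 2.39 and 2.04 RPKM. The log2 fold change of ITGB3 was 0.62 ± 0.16 (limma adjusted p = 0.0411), from 103 to 137 reads per library. ITGB5 transcripts outnumbered those of ITGB3 by 31.5-fold and 28.4-fold in the wild-type libraries and by 9.08-fold and 11.1-fold in the knockdown libraries. The ITGB3 call rests on all 4 libraries, since without any 1 of them the adjusted p lay between 0.0631 and 0.153. Of its exon length, 51.6% is shared with RP11-290H9.2 on the same strand, which was at 2.22 ± 0.415 and 2.54 ± 0.252 RPKM, so reads of the pair cannot be told apart there. ITGAV was not called without knockdown replicate 1 (adjusted p = 0.0976) or 2 (adjusted p = 0.0682). The other αv partners ITGB6 and ITGB8, the TGF-β-activating subunits, were at 0.0621 to 0.262 RPKM in every library, and neither was called in the reported fit. Limma-voom on recovered reads called ITGB8 lower (log2 fold change -1.45; limma-voom adjusted p = 0.00325), from 11 to 76 reads per library.

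ITGA5 (chromosome 12, positions 54395261 to 54419460, minus strand), the α subunit of the main fibronectin receptor α5β1, was the only α subunit called higher. It stood at 23.4 and 25.9 RPKM in wild-type and at 31.9 and 32.7 RPKM in knockdown libraries, with no overlap. The log2 fold change was 0.39 ± 0.08 (limma adjusted p = 0.0207). Without knockdown replicate 1 or 2 it was not called (adjusted p = 0.0805 and 0.0952). Of the other 10 α subunits, 5 were called, all lower, against 13.8% of all genes tested called lower.

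Among collagen receptor α subunits, ITGA2 (chromosome 5, positions 52989326 to 53094779, plus strand) fell from 8.36 and 7.61 RPKM to 5.25 and 4.68 RPKM (log2 fold change -0.67 ± 0.11; limma adjusted p = 0.0114). ITGA10 (chromosome 1, positions 145891208 to 145910189, minus strand), best known from cartilage, fell from 0.333 and 0.530 RPKM to 0.170 and 0.176 RPKM (log2 fold change -0.94 ± 0.25; limma adjusted p = 0.0445). Its call rests on 13 to 64 reads per library and was lost without wild-type replicate 2 or either knockdown replicate (adjusted p between 0.0998 and 0.160). ITGA11 was at 2.78 ± 0.384 and 2.09 ± 0.117 RPKM and ITGA1 at 0.900 ± 0.222 and 0.759 ± 0.0759 RPKM, and neither was called.

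The remaining integrin subunits are those of leukocyte integrins and α9. ITGB2, the β subunit of the leukocyte receptors, was at 0.490 and 0.508 RPKM in wild-type and at 0.800 and 0.717 RPKM in knockdown libraries, from 57 to 71 reads, and was not called (limma adjusted p = 0.0809). ITGB7 (2.18 to 2.46 RPKM) and its partner ITGAE (1.27 to 1.65 RPKM) were not called either, and 42.1% of the ITGB7 exon length lies opposite exons of ZNF740. ITGA9 was at 0.124 to 0.196 RPKM. The leukocyte marker CD14 was at 0.853 and 0.749 RPKM in wild-type libraries (29 and 27 reads). In the knockdown libraries it was at 0.122 and 0.136 RPKM (3 reads each). CD14 passed the read filter only through the wild-type libraries, so its call carries no weight. PTPRC had 4 reads in 1 knockdown library and 0 in the other 3, while CD68, a lysosomal protein, was at 47.2 to 59.9 RPKM and made up most of the summed level of the 5 leukocyte markers used (48.2 to 60.4 RPKM). Other genes share 85.8% of the CD68 exon length, mostly on its own strand, so its value and that sum are uncertain.

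**Figure D3:**
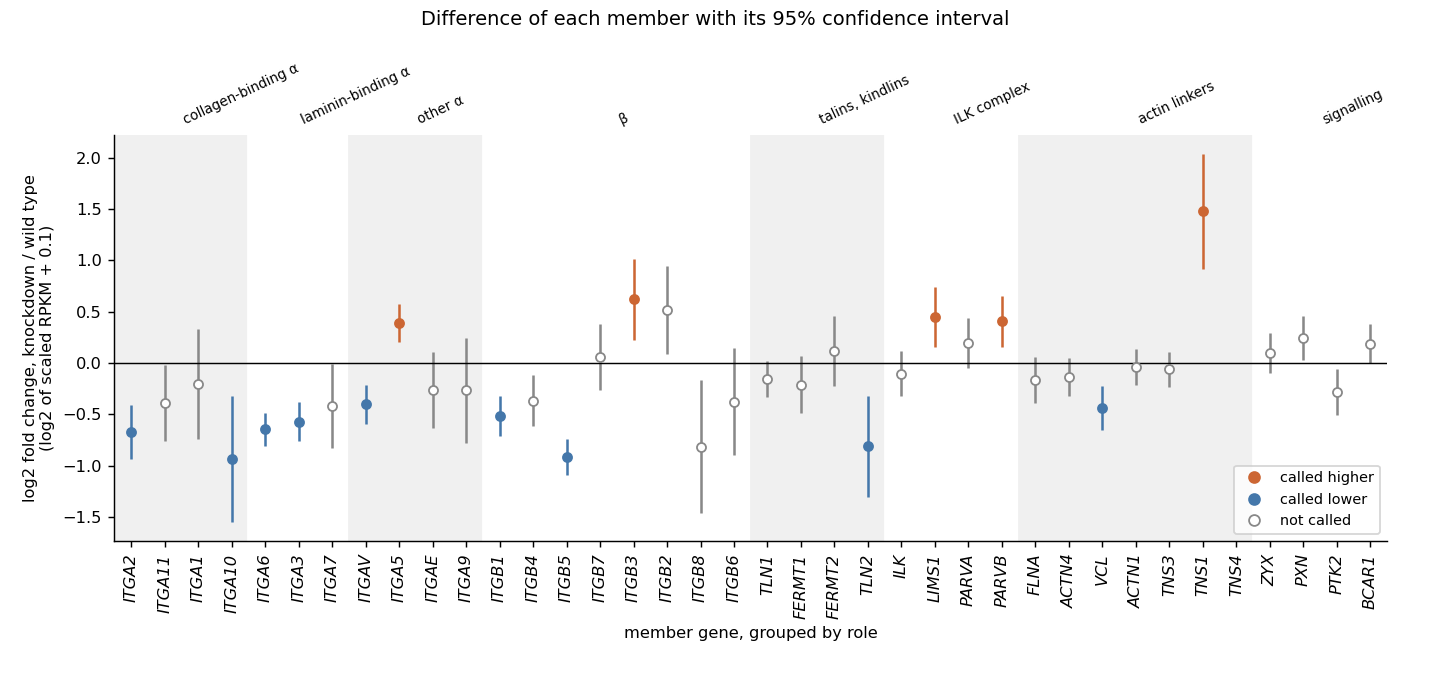
Log2 fold change (knockdown over wild type) of the 37 genes tested, with 95% confidence intervals from limma, grouped by role. Filled symbols are called genes. Intervals of ITGA7, ITGA11, ITGB2, ITGB4, ITGB8, PTK2, PXN and BCAR1 leave out 0, but these genes were not called after adjustment over all genes.

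ITGA5 took a larger share of the α subunit transcripts in knockdown cells, and ITGA6 and ITGA3 smaller ones. The summed level of the 11 α subunits was 195 and 210 RPKM in the wild-type libraries and 151 and 155 RPKM in the knockdown libraries, and that of the 8 β subunits was 205 and 227 against 148 and 153 RPKM. ITGA5 made up 12.0% and 12.3% of the α sum in wild-type and 21.1% and 21.1% in knockdown libraries. The share of ITGA6 went from 31.4 ± 0.487% to 26.4 ± 0.680% (SD, n = 2 each) and that of ITGA3 from 27.5 ± 0.0595% to 24.4 ± 0.851%, while that of ITGAV was 20.8 ± 0.392% and 20.7 ± 0.137%. As a ratio within each library, ITGA6 exceeded ITGA5 by 2.64-fold and 2.52-fold in the wild-type and by 1.28-fold and 1.23-fold in the knockdown libraries. Among β subunits ITGB1 made up 49.6 ± 0.178% and 49.6 ± 2.07%, although its level fell. ITGB5 went from 19.5 ± 0.717% to 14.8 ± 0.168%, and ITGB4 from 28.8 ± 0.620% to 32.0 ± 2.31%. These shares do not depend on the scaling between libraries. They are given as a description, and no test of them was run.

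**Figure D4:**
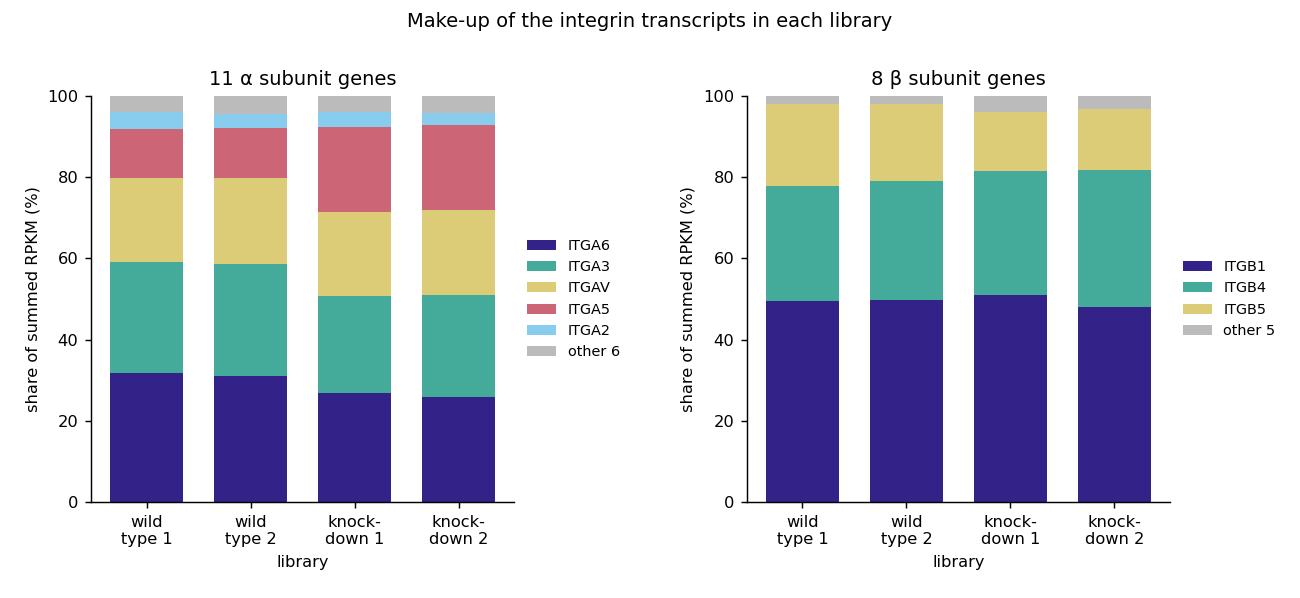
Share of each subunit in the summed RPKM of the 11 α subunits (left) and the 8 β subunits (right) in each of the 4 libraries, in percent, with the least abundant subunits summed in grey. ITGA5 takes 12.0% and 12.3% of the α sum in the wild-type libraries and 21.1% in both knockdown libraries, and ITGB5 shrinks from 19.5% to 14.8% of the β sum on average.

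Of the 4 talins and kindlins, 1 was called, against 24.9% of all genes tested. TLN1 (chromosome 9, positions 35696948 to 35732395, minus strand), the talin of most tissues, was at 54.0 and 58.4 RPKM in wild-type and at 50.1 and 50.7 RPKM in knockdown libraries. It was not called (log2 fold change -0.16 ± 0.07; limma adjusted p = 0.159), with a fold between 0.795 and 1.01 in the 95% interval. TLN2 (chromosome 15, positions 62390526 to 62844631, plus strand), the other talin, was far lower and fell from 0.684 and 0.781 RPKM to 0.330 and 0.422 RPKM (log2 fold change -0.81 ± 0.20; limma adjusted p = 0.0369). Without any 1 library TLN2 was not called (adjusted p between 0.0535 and 0.146). The kindlins FERMT1 and FERMT2 were at 3.83 ± 0.000569 and 1.88 ± 0.162 RPKM in wild-type and at 3.30 ± 0.237 and 2.05 ± 0.0677 RPKM in knockdown cells, and neither was called.

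In the complex of ILK, PINCH and parvin, 2 of 4 genes were called higher, against 11.1% of all genes tested. LIMS1 (chromosome 2, positions 108534355 to 108687246, plus strand), which encodes PINCH1, went from 6.08 and 5.05 RPKM to 7.42 and 7.78 RPKM (log2 fold change 0.45 ± 0.12; limma adjusted p = 0.0429). PARVB (chromosome 22, positions 43999211 to 44172949, plus strand), encoding β-parvin, went from 4.36 and 3.97 RPKM to 5.49 and 5.62 RPKM (log2 fold change 0.41 ± 0.10; limma adjusted p = 0.0380). PARVA was at 5.18 ± 0.318 and 5.95 ± 0.208 RPKM and was not called, nor was the pseudokinase ILK at 11.4 ± 0.106 and 10.6 ± 0.864 RPKM. Exons of TAF10 and of 2 other genes lie opposite 78.5% of the ILK exon length, so its value is uncertain. PARVB was not called without any 1 library (adjusted p between 0.0617 and 0.137), and LIMS1 was not called without wild-type replicate 2 or either knockdown replicate (adjusted p between 0.103 and 0.138).

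TNS1 (chromosome 2, positions 217799789 to 218002995, minus strand), a tensin that binds actin and the β tail in mature fibrillar adhesions, had the largest increase of the 37 genes. It stood at 1.02 and 1.61 RPKM in the wild-type libraries and at 3.55 and 4.01 RPKM in the knockdown libraries, from 288 to 731 reads. This is a rise of 1.48 ± 0.23 on the log2 scale (limma adjusted p = 0.0109), with a fold between 1.89 and 4.12 in the 95% interval. TNS1 and ITGA2 were also called whichever library was left out. TNS3, the tensin most abundant here, was at 17.7 ± 0.0153 and 17.0 ± 0.526 RPKM and was not called. Its estimate of -0.06 turned to 0.0041 without the scaling factors. TNS4 had 4 to 10 reads per library and was not tested.

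VCL (chromosome 10, positions 73995193 to 74121363, plus strand), encoding vinculin, which binds talin under tension, fell from 27.1 and 30.8 RPKM to 20.8 and 21.8 RPKM (log2 fold change -0.44 ± 0.09; limma adjusted p = 0.0213). It was not called without wild-type replicate 2 or either knockdown replicate (adjusted p between 0.0532 and 0.0928). The abundant actin crosslinkers were not called. FLNA was at 439 and 437 RPKM in wild-type and at 373 and 410 RPKM in knockdown libraries (log2 fold change -0.17 ± 0.09; limma adjusted p = 0.232; fold interval 0.762 to 1.04). ACTN4 was at 177 and 185 against 159 and 169 RPKM (log2 fold change -0.14 ± 0.08; limma adjusted p = 0.226; fold interval 0.798 to 1.03). ACTN1 was at 23.5 and 23.5 against 22.1 and 23.6 RPKM, with overlapping groups (log2 fold change -0.04 ± 0.07; limma adjusted p = 0.696), and its estimate turned to 0.02 without the scaling factors. Exons of AP3M1 lie opposite 11.1% of the VCL exon length, and exons of CAPN12 opposite 14.2% of that of ACTN4.

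None of the 4 signalling proteins passed the test, while 24.9% of all genes tested did. Paxillin (PXN), a scaffold of early adhesions, was at 22.1 and 19.4 RPKM in wild-type and at 24.4 and 24.6 RPKM in knockdown libraries (log2 fold change 0.24 ± 0.09; limma adjusted p = 0.0931). The kinase FAK (PTK2) was at 15.3 and 14.7 against 13.2 and 11.5 RPKM (log2 fold change -0.28 ± 0.09; limma adjusted p = 0.0741). ZYX (zyxin), a tension-sensitive LIM protein, was at 26.1 and 23.4 against 26.2 and 26.7 RPKM (log2 fold change 0.10 ± 0.08; limma adjusted p = 0.405). BCAR1 was at 10.5 ± 0.211 and 12.1 ± 0.409 RPKM. At an unadjusted p under 0.05, 3 of these 4 genes differed, and limma-voom on recovered reads called 2 of them. Limma-voom called 35.8% of all genes tested. Exons of PXN-AS1 and RP1-278C19.8 lie opposite 12.4% of the PXN exon length. PXN-AS1 was at 22.8 and 18.1 RPKM in wild-type and at 23.8 and 23.4 RPKM in knockdown libraries, so the value of PXN is uncertain.

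Other genes of the pathway give the setting. Of 4 other integrin subunits tested, 1 was called: ITGAX, a leukocyte α subunit, fell from 1.65 and 1.79 RPKM to 1.07 and 1.20 RPKM (limma adjusted p = 0.0461). Of 46 other adhesion site proteins tested, 15 were called higher and 3 lower, with a median log2 fold change of 0.11. Over all genes tested, 11.1% were higher and 13.8% lower, with a median of -0.03. FLNC, the muscle-type filamin, rose from 23.7 and 26.4 RPKM to 64.4 and 70.8 RPKM (log2 fold change 1.43 ± 0.09; limma adjusted p = 0.00300). RAP1A, a small GTPase that recruits talin to integrins, rose from 2.87 and 2.62 RPKM to 5.38 and 5.49 RPKM (log2 fold change 0.96 ± 0.11; limma adjusted p = 0.00582). FERMT3, the kindlin known from blood cells, was the most abundant kindlin in this line and fell from 64.6 and 60.4 RPKM to 42.7 and 43.7 RPKM (log2 fold change -0.53 ± 0.07; limma adjusted p = 0.00729). Of 16 actomyosin genes, 8 were higher and 1 lower (DIAPH1, a formin), with a median of 0.28. RHOB and RHOA, GTPases of actin control, had log2 fold changes of 1.26 ± 0.08 and 0.61 ± 0.07 (limma adjusted p = 0.00298 and 0.00589), and TPM4, a tropomyosin, one of 0.97 ± 0.07 (limma adjusted p = 0.00369). The summed level of fibroblast and smooth muscle markers, mostly LUM, was 1.30 and 1.54 RPKM in wild-type and 3.62 and 3.63 RPKM in knockdown libraries. Of 6 tested, 3 were called higher (LUM, PDGFRB and COL1A1). LUM had 59 and 70 reads in wild-type and 114 and 93 in knockdown libraries. PDGFRB had 6 and 6 against 17 and 19 reads, and COL1A1 had 5 and 5 against 16 and 15. These 2 genes passed the read filter only through the knockdown libraries, so their calls carry no weight. COL1A1 itself was at 0.0274 ± 0.00112 and 0.128 ± 0.00419 RPKM. Of 3 endothelial markers tested, PECAM1 (8.98 ± 0.417 and 5.77 ± 0.143 RPKM) and CDH5 (0.329 ± 0.0184 and 0.142 ± 0.00157 RPKM) were lower, and KDR was at 0.721 ± 0.104 and 0.866 ± 0.187 RPKM and was not called. The summed endothelial level, mostly PECAM1, was 9.71 and 10.5 RPKM in wild-type and 6.59 and 7.07 RPKM in knockdown libraries. Of 10 hepatocyte markers tested, 3 were lower, namely ALB, FGB and APOB with log2 fold changes of -1.72 ± 0.13, -1.31 ± 0.13 and -0.93 ± 0.18 (limma adjusted p = 0.00366, 0.00524 and 0.0206). KRT18 was higher (0.47 ± 0.12; limma adjusted p = 0.0382), and the other 6 were not called. The part of these markers in the results on the adhesion genes was not tested. In bulk RNA, fewer cells of a type and less RNA per cell cannot be told apart.

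Of the 14 called genes, 3 (ITGB5, ITGA6 and ITGA3) were called under each of the 14 other ways of processing the data, and ITGA2 and TNS1 under 13. Fewer of the 37 genes tested were called when any 1 library was left out, and so were fewer of all genes tested. Without either knockdown replicate, the share called among the 37 lay near that over all genes tested. The 14 genes kept their direction under each setting that gave them a value.

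**Figure D5:**
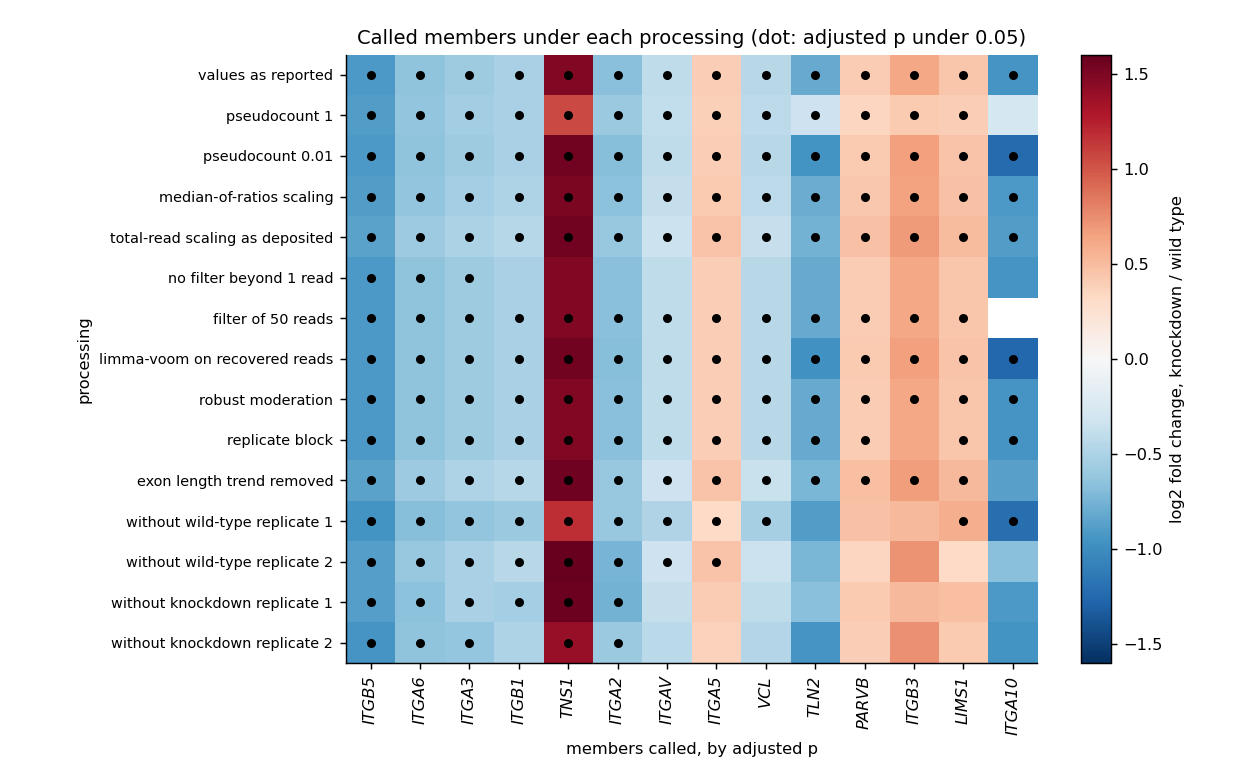
Log2 fold change (colour) of the 14 called genes under the reported processing (top row) and each alternative, with a dot where the adjusted p is under 0.05; the blank cell is a gene below the stricter filter. ITGB5, ITGA6 and ITGA3 carry a dot in each row, and ITGB3, TLN2 and PARVB lose theirs in each row that leaves out a library.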

How the data were processed

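Per the file headers, each deposited table gives exon coordinates, exon length and 1 value per gene name. Value times exon length gives the same total in each library, so the authors' values are RPKM on assigned reads. The submitters' processing notes name StringTie 1.3.2, edgeR 3.12.1, Subread 1.5.1, featureCounts and Trimmomatic 0.36. They name mouse build mm9, but 93.4% of names found once in GENCODE had the same GRCh38 start and end. Not given in the sources used here are the aligner, the use of molecular identifiers and the strand setting, so overlapping genes are uncertain.

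All values (100%) were whole multiples of 1 read, within 0.01 of a read. RPKM were divided by TMM factors from these reads and fitted in limma 3.58.1 (R 4.3.3) as log2(RPKM + 0.1) (trended spread, group as the only term), for genes reaching 10 reads at median depth in 2 libraries and 15 reads in all. Fold changes understate those of low genes. The procedure was tested on simulated data. Each gene called and each member at 20 RPKM or more is given in full. Other lists are represented by up to 3 called genes of smallest p. Members and lists were chosen with earlier results of these data known. Alternatives covered scaling, filters, pseudocounts, limma-voom, robust moderation, exon length, a replicate block and left-out libraries.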

Additional observations from a re-analysis of the deposited data

How the results depend on the processing

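With the filter lowered to 1 read, limma called 0 adhesion genes higher and 3 lower (ITGB5, ITGA6 and ITGA3), 9 genes of the other integrin, adhesion and actomyosin lists higher and 2 lower, and 693 of all genes higher and 1113 lower, with 39306 genes tested. At an unadjusted p under 0.05, 22 of the 37 genes of the reported fit differed. Limma-voom on the recovered reads called 14 adhesion genes lower, among 21 called in all, which included the 14 reported. Over all genes tested it called 35.8%, against 24.9% in the reported fit. The adhesion genes it added were ITGA7, ITGA11, ITGB2, ITGB4, ITGB8, PTK2 and PXN. With the filter of 50 reads, ITGA7, ITGA11, ITGB2, ITGB4 and PTK2 were added, and ITGA10 was not tested. That filter gave 41.9% of all genes tested called. Of the 66 genes tested from the other integrin, adhesion and actomyosin lists, 23 were reported higher and 5 lower. The 5 became 2 without scaling factors, 2 with the exon length trend removed and 3 with the replicate block. The replicate block gave 4 adhesion genes higher and 10 lower, losing ITGB3 (adjusted p = 0.0567) and gaining ITGB4. Replicate numbers showed no clear pairing (correlation of same-numbered deviations 0.0628). Leaving out 1 library left 1 to 4 adhesion genes higher and 4 to 8 lower, 9 to 18 of the other list genes higher and 2 to 3 lower, and 968 to 1531 of all genes higher and 1322 to 1690 lower. Where an arm kept 1 library, it was assumed to vary like the other group.

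Shares from reads in place of RPKM, which weight long genes, were 33.4% and 29.7% for ITGA3 in wild-type and knockdown cells, 11.4% and 19.8% for ITGA5, 25.4% and 21.4% for ITGA6, 47.3% and 47.5% for ITGB1 and 30.9% and 34.5% for ITGB4. In knockdown cells they were 21.1% for ITGAV and 15.2% for ITGB5. Uncalled estimates near 0 changed sign: TNS3 to 0.0041 without scaling factors and 0.0196 with the length trend removed, and ACTN1 to 0.0219 and 0.0355 under these. With 1 library left out, estimates ran from -0.0908 to 0.0078 for ACTN1, from -0.43 to 0.0222 for ITGA1 and from -0.0011 to 0.12 for ITGB7. The settings above zero were without knockdown replicate 1 for ACTN1 and without wild-type replicate 2 for ITGA1, and the value below zero of ITGB7 was without knockdown replicate 1. Depth limits ITGA9, ITGA10, ITGB6, ITGB8 and TNS4 most, at 4 to 76 reads per library.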
